A study of Mus musculus with 2 samples.

Results

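The proteasome genes described here are 10 of the 26082 genes in the deposited tables, and they were matched by gene name from a list drawn up with earlier results of these data known. They comprise the inducible catalytic subunits Psmb8, Psmb9 and Psmb10, their constitutive counterparts Psmb5, Psmb6 and Psmb7, the activator genes Psme1, Psme2 and Psme3, and the assembly factor Pomp. The study asked what raised TGFBR3, the type III TGF-β receptor, does to fibro-adipogenic progenitors (FAPs), the muscle-resident stromal cells that can become fat cells. Primary wild-type mouse FAPs, sorted from digested hind limb muscle, were transfected in culture with a TGFBR3 overexpressing plasmid or with the vector, and both cultures were put into adipogenic induction medium with serum, IBMX, dexamethasone and insulin. Poly(A) RNA was sequenced from 1 library per culture, so each value below compares those 2 libraries, not the conditions, and no difference has a replicate check. Both the vector and the expressing plasmid reached the cells by transfection, and an untransfected culture was not analysed here.

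Proteasomes cut ubiquitin-tagged proteins into peptides inside a barrel of stacked rings, in which alpha subunits form the outer rings and beta subunits the inner rings that carry the active sites. In cells that sense interferon, newly made barrels can take up inducible catalytic subunits in place of the constitutive ones, and this form, the immunoproteasome, yields peptides that bind well to MHC class I. Psmb8 (also called LMP7) replaces Psmb5 at the chymotrypsin-like site, Psmb9 (LMP2) replaces Psmb6 at the caspase-like site, and Psmb10 (MECL-1) replaces Psmb7 at the trypsin-like site.

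Psmb8 and Psmb9 lie in the MHC region of mouse chromosome 17, beside Tap1 and Tap2, which encode the pump that carries peptides to MHC class I. On mm10 with GENCODE M21, Psmb9 spans 34181987 to 34187764 of chromosome 17 on the minus strand, and Psmb8 spans 34197721 to 34201454 on the plus strand. The other catalytic genes are scattered: Psmb10 at 105935735 to 105938444 of chromosome 8, Psmb5 at 54614119 to 54618022 of chromosome 14, Psmb6 at 70525367 to 70527858 of chromosome 11 and Psmb7 at 38588036 to 38644087 of chromosome 2. Psme1 (55578123 to 55581529) and Psme2 (55587441 to 55591113) are close neighbours on opposite strands of chromosome 14, Psme3 is at 101316213 to 101323537 of chromosome 11 and Pomp at 147860461 to 147876456 of chromosome 5. All are protein-coding, with 3 exons in the principal transcript of Psmb5 and 6 in that of Psmb8, Psmb9, Psmb6 and Pomp.

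Promoter windows of 300 bases, from 250 bases before the RefSeq start, were present for 9 of the 10 members (build GRCm38.p6). They were searched for the core of the interferon-stimulated response element (ISRE, GAAANNGAA, both strands), for the gamma-activated site of interferon gamma response genes (GAS, TTCNNNGAA, which reads the same on both strands) and for the core of the antioxidant response element (ARE, TGACNNNGC, both strands), which the factors NRF1 and NRF2 bind. Over all 32851 such windows of the mouse, 8.56% held the ISRE core, 8.30% the GAS and 12.4% the ARE core, so letters this short are common. Of the members, 5 held a match to any of these elements, and no match overlapped another. The shares over all windows are for each element alone, and the share of windows with any of them was not computed. Whether 5 members is more than usual was therefore not tested. Each matching site is printed here on the strand of its gene with 10 bases to either side and the matching letters in capitals, since induction by interferon and induction by proteasome shortage are known to run through such elements.
Psmb8 (GAS, chr17:34198088-34198116, plus strand): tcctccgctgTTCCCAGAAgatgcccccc
Psmb5 (ARE core, chr14:54618024-54618052, minus strand): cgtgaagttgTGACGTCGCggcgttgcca
Psmb6 (ARE core, chr11:70525338-70525366, plus strand): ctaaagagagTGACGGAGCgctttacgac
Psme1 (ISRE core on the opposite strand, chr14:55578494-55578522, plus strand): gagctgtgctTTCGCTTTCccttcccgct
Pomp (ISRE core, chr5:147860610-147860638, plus strand): ctcggccccgGAAACGGAAgtgagcggtt

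The Psmb8 match began 97 bases before the RefSeq start, those of Psmb5 and Psmb6 began 47 and 9 bases before it, that of Pomp began 8 bases before it and that of Psme1 began 10 bases after it. On GENCODE M21 the sites of Psmb8, Psme1 and Pomp fall inside the annotated gene spans, and those of Psmb5 and Psmb6 lie just before them. The windows of Psmb9, Psmb10, Psme2 and Psme3 held none of the 3 letter patterns, which says only that these letters are not in those windows. Outside annotated UTRs, the windows of Psmb8 and Psmb9 held no bases before the start, and Psmb7 had no window. Psmb10 was thus the only inducible catalytic gene with such a stretch, and it does not stand for the others. The stretches of Psmb10 and Psmb5 are printed next, with the ARE core of Psmb5 in capitals.
Psmb10 (chr8:105938445-105938642, minus strand): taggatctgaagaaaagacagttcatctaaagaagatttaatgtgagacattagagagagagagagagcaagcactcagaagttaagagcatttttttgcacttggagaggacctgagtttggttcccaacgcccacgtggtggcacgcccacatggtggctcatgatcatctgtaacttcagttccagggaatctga
Psmb5 (chr14:54618023-54618245, minus strand): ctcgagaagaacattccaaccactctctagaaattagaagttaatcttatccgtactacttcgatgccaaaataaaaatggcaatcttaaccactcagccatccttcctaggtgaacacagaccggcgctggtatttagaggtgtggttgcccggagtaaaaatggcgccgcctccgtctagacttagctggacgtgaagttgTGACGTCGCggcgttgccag

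The library labelled TGFBR3 overexpression held 62321027 counts in all, and the library labelled vector control held 83779203. Tgfbr3 itself stood at 36.87 FPKM (16372 counts) in the former and 35.13 FPKM (21245 counts) in the latter, a log2 ratio of 0.07 with a 95% interval of 0.04 to 0.10, so the counts of the mouse gene do not show the labelled overexpression. The labels do not give the sequence of the plasmid's insert, and an insert that differs from the mouse transcript would not be counted fully here. The paper also measured TGFBR3 by real-time PCR in FAPs given the plasmid or the vector, and those values were not read here. The libraries are called the TGFBR3-labelled and the vector-labelled library from here on. FPKM is the count of a gene divided by its exon length and a library total. Log2 ratios are of (FPKM + 1), TGFBR3-labelled over vector-labelled, and each member's carries in brackets a 95% Clopper-Pearson interval (exact) from the gene's split of counts, which holds counting error only. Over the 10626 genes at 1 FPKM or more in both libraries the median log2 ratio was 0.13, and this shift runs through all values below. The FAP markers Pdgfra and Pdgfrb were present at 30.5 and 88.9 FPKM in the TGFBR3-labelled library and at 32.6 and 94.3 FPKM in the other, whereas Dpp4, Pi16 and Lum were at or under 0.27 FPKM in both.

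All 3 inducible catalytic subunits were higher in the TGFBR3-labelled library, by 2.47 to 5.16 times in plain FPKM. Their constitutive counterparts lay between 0.772 and 1.05 times the control level. Of the activators, Psme1 stood at 2.25 and Psme2 at 1.66 times the control level, and Psme3 and Pomp were close to the median gene. At least a 2-fold difference on the log2 (FPKM + 1) scale was reached by 4 of the 10 members, namely Psmb8, Psmb9, Psmb10 and Psme1, all upward, against 3.14% of the 11213 genes whose FPKM averaged 1 or more. None of the 10 was 2-fold lower, against 1.03% of those genes. All 10 members met that minimum of 1 FPKM. Over those genes 352 were 2-fold higher and 116 lower, a split that became 268 and 183 after centring on the median gene and 283 and 302 with TMM-scaled counts.

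**Figure D1:**
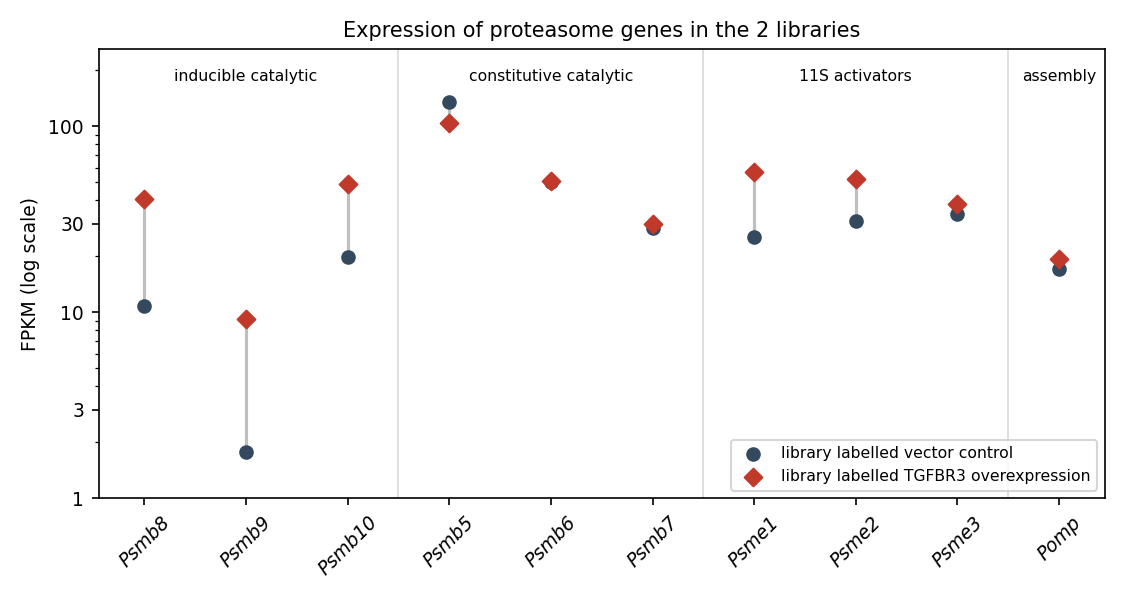
FPKM on a log axis of the 10 genes in the TGFBR3-labelled library (red diamonds) and the vector-labelled library (dark circles), with 1 library each and a grey line joining the values of a gene. The diamond lies above the circle for Psmb9 (9.18 against 1.78), Psmb8 (40.76 against 10.78) and Psmb10 (49.31 against 19.97), the symbols of Psmb6 and Psmb7 nearly coincide, and Psmb5 has the diamond below the circle (104.8 against 135.76).

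Psmb8 stood at 40.76 FPKM (9353 counts) in the TGFBR3-labelled library and at 10.78 FPKM (3369 counts) in the control. The log2 ratio was 1.83 (1.77 to 1.88), or 3.78-fold (3.63 to 3.93), and 94 of the 11213 genes had a higher one. An antisense gene, Gm20496, covers 14.7% of the exon bases of Psmb8, and whether the counting used strand is not given in the sources used here.

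Psmb9 was the lowest of the catalytic genes in both libraries, at 9.18 FPKM (2281 counts) and 1.78 FPKM (603 counts). Its plain ratio was the largest of the 10 members at 5.16-fold (4.71 to 5.65). On the log2 (FPKM + 1) scale, which understates the difference of a gene this low, the ratio was 1.87 (1.78 to 1.96), close to that of Psmb8. Of its exon bases, 5.79% overlap Tap1 on the opposite strand, and Tap1 was itself higher at 28.12 against 10.74 FPKM.

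On the FPKM scale Psmb10 was the most abundant of the inducible genes in both libraries, with 49.31 FPKM (5707 counts) against 19.97 FPKM (3149 counts). Its log2 ratio of 1.26 (1.20 to 1.32), or 2.47-fold (2.36 to 2.58), lay below those of Psmb8 and Psmb9, with intervals that do not overlap. Psmb10 shares no 31-base word with transcripts of other genes and no exon base with another gene. Under 9 other scalings its log2 ratio lay between 1.03 and 1.33, that of Psmb8 between 1.64 and 1.92 and that of Psmb9 between 1.75 and 2.37, so all 3 remained past 2-fold.

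Among the constitutive catalytic subunits, Psmb5 was the only one with an interval below 0. It stood at 104.8 FPKM (6392 counts) in the TGFBR3-labelled library and at 135.76 FPKM (11277 counts) in the control, a log2 ratio of −0.37 (−0.41 to −0.33), or 0.772-fold. It was the most abundant of the 6 catalytic genes in both libraries on this scale. The ratio lay between −0.62 and −0.30 under the 9 other scalings. Psmb5 shares 71.7% of its 31-base words with other transcripts, chiefly those of the pseudogene Gm3375, which held 165 and 207 counts, and with the counts of Gm3375 added the log2 ratio was −0.36.

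Psmb6 stood at 51.05 FPKM (6484 counts) and 50.17 FPKM (8679 counts), with a log2 ratio of 0.02 (−0.02 to 0.07). Psmb7 stood at 29.88 FPKM (6936 counts) and 28.45 FPKM (8993 counts), with a log2 ratio of 0.07 (0.02 to 0.11). After centring on the median gene the values were −0.10 and −0.06, and the direction of both turned with the scaling, from −0.23 to 0.10 for Psmb6 and from −0.18 to 0.07 for Psmb7. Of the exon bases of Psmb7, 11.8% overlap Nek6 on the opposite strand.

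**Figure D2:**
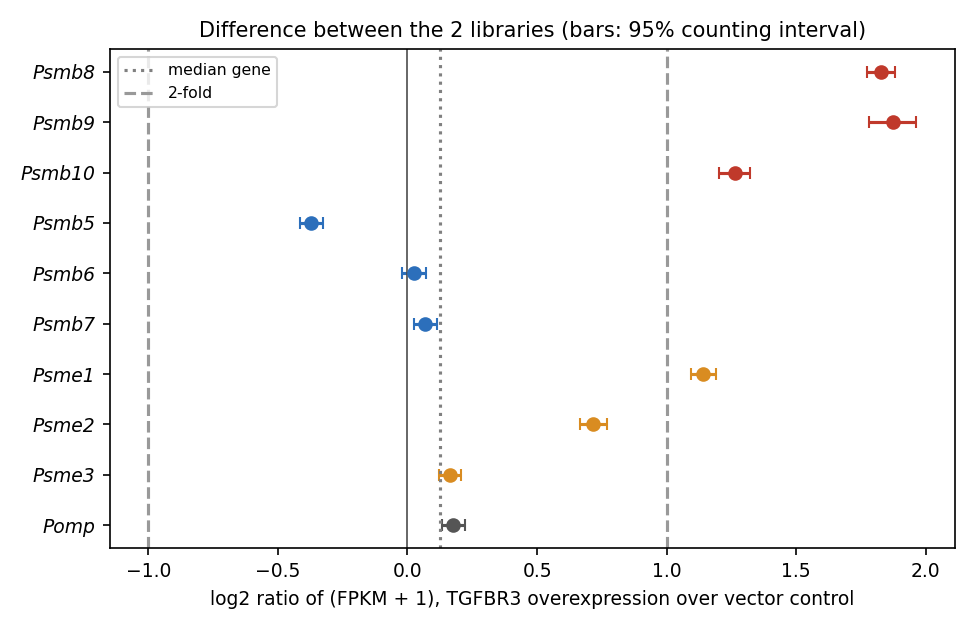
Log2 ratio of (FPKM + 1), TGFBR3-labelled over vector-labelled library, for each of the 10 genes with bars for the 95% counting interval, coloured by role (inducible red, constitutive blue, activators orange, Pomp grey), 1 library per label. Psmb8, Psmb9, Psmb10 and Psme1 lie past the dashed line of 2-fold and Psmb5 lies at −0.37, while Psmb6, Psmb7, Psme3 and Pomp lie near the dotted line of the median gene at 0.13 and change sign with the scaling.

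The balance of inducible over constitutive transcripts does not depend on the total of a library. In FPKM, the 3 inducible genes summed to 99.25 and the 3 constitutive genes to 185.73 in the TGFBR3-labelled library, a ratio of 0.534. In the control they summed to 32.53 and 214.38, a ratio of 0.152. The ratio was thus 3.52-fold higher (3.40 to 3.65, counting error only).

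By catalytic site the fold was uneven. The Psmb8 to Psmb5 ratio was 0.389 against 0.0794, a 4.90-fold difference (4.66 to 5.15), and the Psmb9 to Psmb6 ratio was 0.180 against 0.0355, a 5.07-fold difference (4.61 to 5.58). The intervals of these 2 pairs overlap. The Psmb10 to Psmb7 ratio, at 1.65 against 0.702, differed by 2.35-fold (2.23 to 2.48), below both other pairs. After removal of the GC trend the 3 folds were 4.78, 5.03 and 2.79, and with the trend over exon length removed they were 4.66, 4.48 and 2.69, so the trypsin-like pair kept the smallest.

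Read as a share of each pair's FPKM, Psmb8 made up 28.0% in the TGFBR3-labelled library and 7.36% in the control, Psmb9 15.2% and 3.43%, and Psmb10 62.3% and 41.2%. These levels rest on the length of all annotated exons, which for Psmb7, Psmb9, Psmb6 and Psmb8 is over 2 times that of the principal coding transcript and for Psmb5 equals it. Per kilobase of principal transcript, a length chosen after the values were seen, the shares were 44.7% and 14.2% for Psmb8, 17.2% and 3.94% for Psmb9, and 42.1% and 23.7% for Psmb10. Psmb10 exceeded Psmb7 only in the TGFBR3-labelled library and only on the FPKM scale, and in that library the order of Psmb8 and Psmb10 also depended on the length used. The fold of each pair between libraries does not depend on the length, and that of the sums was 3.52 on both scales.

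**Figure D3:**
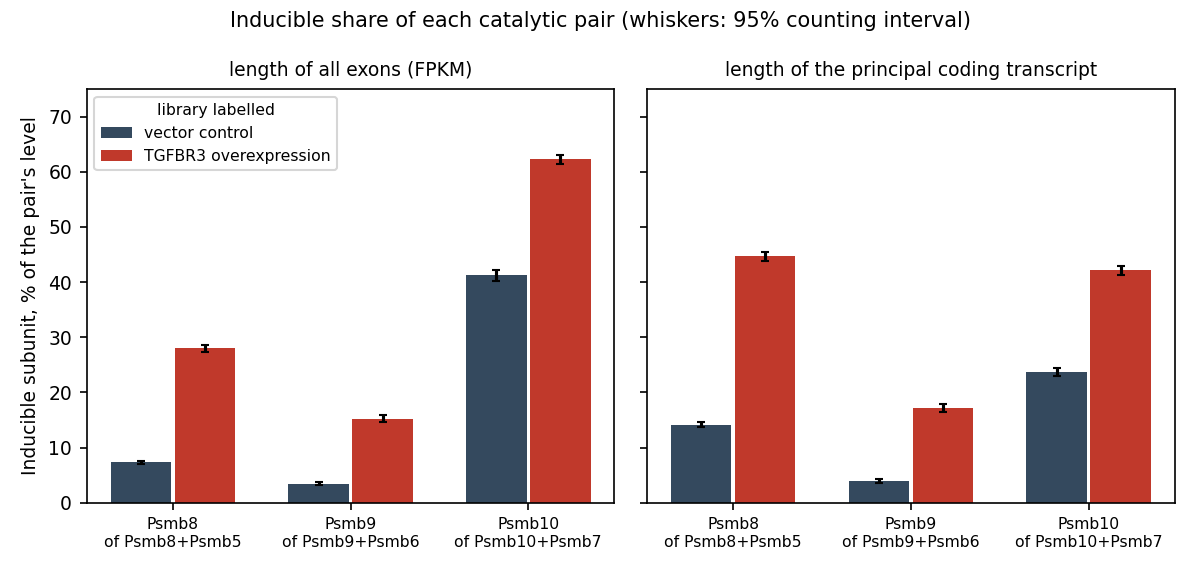
Inducible subunit as a percent of the level of its catalytic pair in the vector-labelled library (dark) and the TGFBR3-labelled library (red), 1 library each, with levels per length of all exons (left) or of the principal coding transcript (right) and whiskers for the 95% counting interval. Every red bar exceeds its dark neighbour in both panels, from 7.36% to 28.0% for Psmb8 on the left and from 14.2% to 44.7% on the right, while the tallest bar is Psmb10 on the left and Psmb8 on the right.

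Psme1 and Psme2 encode the alpha and beta subunits of PA28, the interferon-inducible ring that caps the barrel and opens its gate, and Psme3 encodes PA28 gamma, a mostly nuclear relative that interferon does not induce. Psme1 stood at 57.06 FPKM (8556 counts) in the TGFBR3-labelled library and 25.31 FPKM (5169 counts) in the control, a log2 ratio of 1.14 (1.09 to 1.19), or 2.25-fold (2.18 to 2.33). Its call was the weakest of the 4: it lay at 0.94 with TMM-scaled counts and at 0.91 with median-of-ratios scaling, both short of 2-fold. It shares 9.51% of its 31-base words with other transcripts, chiefly the pseudogene Gm7776, which was listed at 0 counts in both libraries.

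Psme2 stood at 51.83 FPKM (6207 counts) and 31.13 FPKM (5078 counts), a log2 ratio of 0.72 (0.67 to 0.77), or 1.66-fold. Of its 31-base words, 33.5% occur in other transcripts, mostly those of Psme2b, an intronless look-alike on chromosome 11. Psme2b was listed at 48.35 FPKM (2746 counts) and 23.41 FPKM (1811 counts), a log2 ratio of 1.02 (0.93 to 1.10). How the authors' counting split reads between them is not given in the sources used here. With the counts of both summed, 8953 against 6889, the log2 ratio was 0.81 (0.76 to 0.85), still under 2-fold and still below that of Psme1.

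Psme3 stood at 38.05 FPKM (7613 counts) and 33.84 FPKM (9224 counts), a log2 ratio of 0.16 (0.12 to 0.21). It thus lay within 0.04 log2 units of the median gene and apart from Psme1 and Psme2, and its sign turned with median-of-ratios scaling to −0.08. The FPKM of Psme1 and Psme2 together with Psme3 summed to 146.94 against 90.28.

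Pomp, the maturation factor that helps beta subunits into the growing barrel, stood at 19.43 FPKM (6877 counts) and 17.07 FPKM (8228 counts). Its log2 ratio of 0.18 (0.13 to 0.22) was 0.05 above the median gene and lay between −0.07 and 0.19 under the other scalings. Its annotated exons are 3.30 times as long as its principal transcript, so its FPKM understates its level beside that of Psmb5 or Psme3.

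Of 30 other 20S and 19S subunits, 1 was 2-fold higher and none lower. That is close to the 3.14% and 1.03% past those thresholds among genes averaging 1 FPKM or more. The median log2 ratio of the 30 subunits was 0.29, which is 0.17 above the median gene. The 1 gene was Psmc6, an ATPase of the 19S base, at 26.8 against 11.53 FPKM and a log2 ratio of 1.15. It fell below 2-fold with TMM-scaled counts, with median-of-ratios scaling and, at 0.70, with the GC trend removed. The share above 0 depended on the scaling, from 28 of 30 in FPKM to 18 of 30 with median-of-ratios scaling.

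By role, the 7 alpha ring genes had a median log2 ratio of 0.39, from 0.10 for Psma7 to 0.67 for Psma6, and all 7 were above 0 in FPKM and 5 with the GC trend removed. The 4 beta subunits without an active site had a median of 0.04, from −0.15 for Psmb4 to 0.12 for Psmb1, and this median was below 0 after centring. The ATPases other than Psmc6 began at 0.21 for Psmc3, with a median of 0.37 over all 6. The 13 non-ATPase subunits of the 19S cap had a median of 0.28, from −0.28 for Sem1 to 0.50 for Psmd12. The summed FPKM of the alpha ring was 389.01 against 281.29. The constitutive catalytic genes taken over the alpha ring were thus 0.477 against 0.762, and the inducible ones 0.255 against 0.116, a 2.21-fold difference. With the GC trend removed the median log2 ratio of the alpha ring was only 0.09. Ratios over the alpha ring were not computed on that scale.

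The chaperones of alpha ring assembly, Psmg1 to Psmg4, had a median log2 ratio of 0.30, from 0.01 for Psmg3 to 0.40 for Psmg2. Of the 19S chaperones, 3 were analysed and ranged from −0.06 for Psmd9 to 0.52 for Psmd5. The 6 other regulators had a median of 0.62, and none reached 2-fold. The deubiquitinase Usp14 was highest at 0.83 (9.76 against 5.04 FPKM) and Ube3c lowest at 0.27. With the GC trend removed that median was 0.35, with 2 of the 6 below 0, and Usp14 stood at 0.38 and Psmd5 at 0.17. The tissue-restricted alpha subunit Psma8 was near absent at 0.56 and 0.20 FPKM.

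**Figure D4:**
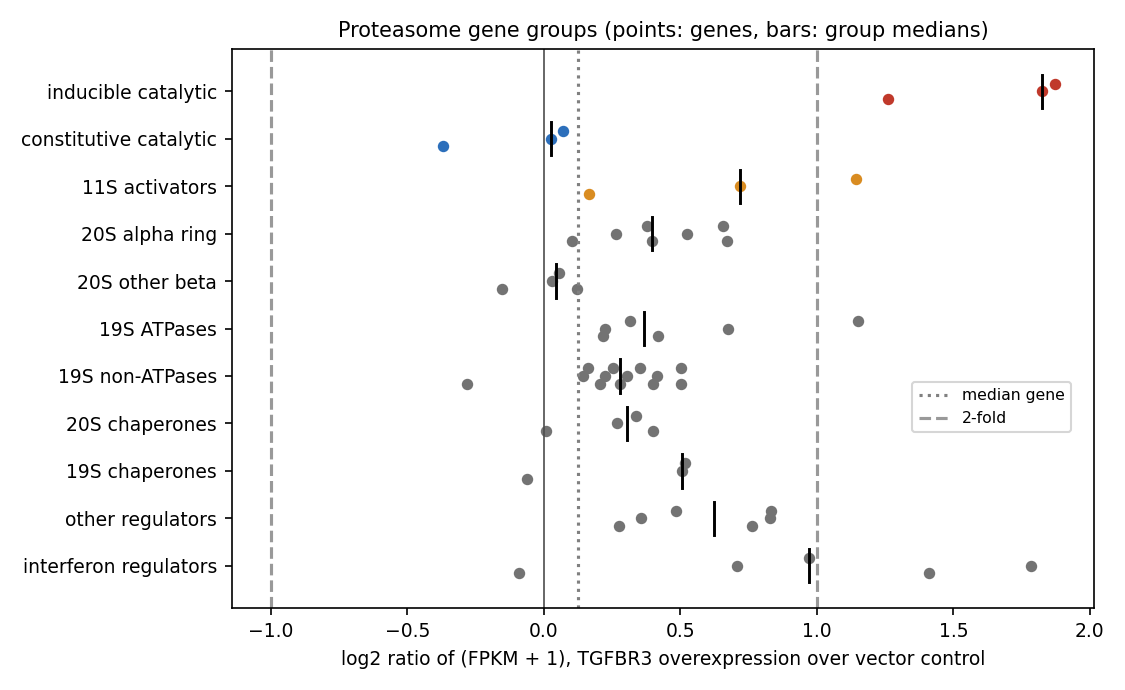
Log2 ratio of (FPKM + 1), TGFBR3-labelled over vector-labelled library, for each gene (points) of the proteasome groups and of the interferon regulators, with black bars for group medians, a dotted line for the median gene at 0.13 and dashed lines at 2-fold, 1 library per label. The inducible catalytic genes have a median of 1.83, the constitutive ones 0.02 and the alpha ring 0.39, and the medians of the constitutive and other beta subunits turn below 0 after centring on the median gene.

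Interferon acts on immunoproteasome genes in part through the IRF factors, and NLRC5 is a transactivator of MHC class I and of Psmb9. Of 5 interferon regulators, 2 were at least 2-fold higher and none lower, beside 3.14% and 1.03% of genes averaging 1 FPKM or more. The median log2 ratio of the regulators was 0.97, beside 0.14 over those genes. Irf8 did not meet that minimum of 1 FPKM. Nlrc5 stood at 6.24 against 1.10 FPKM (log2 ratio 1.79) and Stat2, which pairs with Irf9 in type I interferon signalling, at 48.45 against 17.59 FPKM (1.41). With smaller pseudocounts or none, Irf9 also passed 2-fold. Irf9 stood at 26.81 against 13.19 FPKM (0.97) and Irf1 at 18.03 against 10.64 FPKM (0.71). Irf8, a factor of myeloid and lymphoid cells, was near absent at 0.09 and 0.16 FPKM (43 and 103 counts).

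The neighbours in the MHC region were higher as well, Tap1 with a log2 ratio of 1.31 and Tap2, at 34.44 against 21.52 FPKM, with 0.65. The order along the chromosome, Psmb9, Tap1, Psmb8, Tap2, therefore ran 1.87, 1.31, 1.83 and 0.65. A list of 4 genes drawn up around the induction of proteasome genes by NRF1, with NRF2 included, had a median of 0.32. Nfe2l1, which encodes NRF1, was at 0.09, Ngly1 at 0.19 and Ddi2 at 0.45. Nfe2l2, which encodes NRF2, was highest at 0.89 (65.41 against 34.95 FPKM). With the GC trend removed the median of the list was 0.19 and Nfe2l2 stood at 0.58. With the exon length trend removed the median was 0.08 and Nfe2l2 stood at 0.78. On that scale 2 of the 4, Nfe2l1 and Ngly1, were below 0.

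The 3 non-member genes nearest to the mean point of the inducible subunits, by Euclidean distance in log2 (FPKM + 1) over the 2 libraries, were Il1rl1 (25.16 and 9.72 FPKM, distance 0.294), Apol9a (32.86 and 8.33 FPKM, 0.298) and Nampt (21.19 and 7.73 FPKM, 0.323). With 2 points per gene, this likeness says only that the genes had similar levels and ratios.

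Immunoproteasome genes are rich in leukocytes, so markers of other cells were read beside them. The 10 myeloid markers summed to 0.91 and 0.55 FPKM, with 6 and 4 of them at 0. Csf1r was the highest of them with 182 and 210 counts, and Laptm5 had 35 and 19 and C1qb 20 and 0. Ptprc (CD45) had 0 and 4 counts, and Adgre1, Tyrobp and Fcer1g had 0 in both libraries. Of 9 lymphocyte markers, 2 were listed and summed to 0.05 and 0.04 FPKM, with Cd79a the highest. The endothelial markers, led by Tek, summed to 2.17 and 2.03 FPKM and the muscle cell markers, led by Des, to 1.31 and 0.96 FPKM.

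The 5 adipocyte markers summed to 35.26 against 69.2 FPKM. Adipoq (log2 ratio −1.07) and Cfd (−1.29), 2 of the 5, were 2-fold lower, beside 1.03% of all genes averaging 1 FPKM or more. Cfd was the highest of them at 15.33 against 39.04 FPKM. Plin1 had a log2 ratio of −0.47 and Cidec of −0.58, and Fabp4 was nearly level at 12.6 against 13.94 FPKM (−0.14). The 9 FAP markers summed to 1638.68 against 1745.43 FPKM. Among them Ly6a, itself an interferon-responsive gene, was highest at 1012.73 against 706.37 FPKM, and Col1a1 was at 467.46 against 869.95. Cd34 stood at 20.62 against 25.68 FPKM and Dcn at 18.16 against 16.4. In bulk RNA, fewer cells of a type and less RNA per cell cannot be told apart, and the part of these cell markers in the proteasome values was not tested. GC content moved with the log2 ratio across the genes averaging 1 FPKM or more. Over 20 bins of GC content the median went from 0.45 at the low end to −0.27 at the high end. The GC content of the principal transcripts of the catalytic members ran from 48.7% for Psmb7 to 56.6% for Psmb5, with Psmb8, Psmb9 and Psmb10 at 55.8%, 55.3% and 56.5%.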

How the data were processed

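The authors deposited, for each gene and library, the raw count and the FPKM rounded to 2 decimals. The paper's methods name STAR and FeatureCounts on mm10, whereas the submitters' processing notes list cutadapt 1.9, HISAT2 2.2.1, StringTie 2.1.6, DESeq2 and edgeR, and which of them made the tables is not given in the sources used here. For 98.5% of 7908 and 98.6% of 8334 genes, and for all 10 members, FPKM lay within 1% of the count over the length of all exons and a single total, so FPKM depends on that annotated length. The labels describe second strands marked with dUTP, and whether counting used strand is not given. The members and lists were chosen with earlier results of these data known.

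The main value was the log2 ratio of (FPKM + 1), with 2-fold as the threshold and no test, because there is 1 library per label. Intervals are exact Clopper-Pearson 95% intervals of the counts, or on the log scale for ratios. The text names all members, the highest and lowest gene of each other proteasome list and any past 2-fold. It also names the interferon regulators, Tap1, Tap2, Tgfbr3, markers by their sums and highest genes, and the 3 genes nearest to the inducible subunits. Psmg1 to Psmg4, Psme2b, Gm3375, Ngly1, Ddi2 and single markers beyond that were named after their values were seen. Alternatives were pseudocounts of 0.1, 0.01 and none, centring, CPM, TMM (edgeR 4.0.16) and median-of-ratios (DESeq2 1.42.0) scaling of counts, removal of GC and exon length trends over 20 bins, thresholds of 1.5-fold and 4-fold, and no filter. Coordinates and lengths came from GENCODE M21, which held 99.7% of the deposited gene identifiers, and promoters from RefSeq. Calculations ran in Python 3.11.15 (SciPy 1.17.1) and R 4.3.3. The log2 ratio, the 2-fold calls, the trend removal and the intervals were tested on simulated counts with counting error only. Intervals were tested there without a pseudocount, and those of ratios for single genes, not sums. The promoter search, the shared words and the count scalings were not tested in this way. Psmb11 and Paaf1 were not analysed here. Another gene of the interferon regulator list is not reported here.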

Additional observations from a re-analysis of the deposited data

How the results depend on the processing

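With 1 library per label, no replicate could be left out and no paired analysis was possible because each label holds a single library. The spread between cultures was not measured, and the intervals hold none of it. The count of 4 members 2-fold higher became 3 with TMM-scaled and with median-of-ratios-scaled counts, by the loss of Psme1. It was 4 under the other alternatives at 2-fold. On the log2 (FPKM + 1) scale it was 5 at 1.5-fold (13.3% of genes) and 0 at 4-fold (0.687%). At 4-fold without a pseudocount it was 1 (1.22% of genes), with Psmb9 at a log2 ratio of 2.37. It was also 1 at 4-fold with the smaller pseudocounts, CPM and TMM scaling, and 0 under the other scalings. No member was 2-fold lower under any alternative run. The 1 other 20S or 19S subunit became 0 with TMM scaling, 0 with median-of-ratios scaling and 0 with the GC trend removed. The 3.52-fold difference in the inducible to constitutive ratio became 3.88 as the geometric mean of the pair ratios, 2.21 over the alpha ring, 2.61 without Psmb8 and Psmb5 and 4.74 without Psmb10 and Psmb7. It was 3.57 without Psmb9 and Psmb6, 3.56 in raw counts, 3.59 with the GC trend removed and 3.54 with the exon length trend removed. The trend removals on ratios, the principal transcript length and the sums with look-alike genes were chosen after seeing the data. All genes of the 20S alpha and other beta and 19S lists were at 1 FPKM or more, so a filter at that level could not change them.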
